A study of Mus musculus with 18 samples.

Results

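The data described here are the hippocampal transcripts of mice that had been fed a cannabis extract during adolescence, compared between adulthood and the end of dosing. They comprise 5 arrays of adult cannabis mice and 4 arrays of cannabis mice at postnatal day 28 (P28), which is 9 of the 18 arrays of the study, taken by their sample titles. The other 9 arrays are the same ages after vehicle. All animals were C57Bl6/J mice. The adult cannabis mice were 56 days old and had received the extract at 20 mg/kg a day by hand feeding for 14 days, from P14 until P28, when dosing ended. The P28 cannabis mice received the same extract on the same days and were killed 70 to 80 minutes after feeding began. The adult and P28 vehicle mice were fed the same emulsion of condensed milk and olive oil without the extract. Animals of the study went through behavioural tests, and adults of both treatments were killed 2 weeks after a test of locomotion under the NMDA receptor blocker phencyclidine (PCP). Age, time since the last dose, the recent feeding at P28, the behavioural tests and PCP therefore cannot be told apart in the comparison of adults with P28 mice. Nothing in the labels ties an array to its own mouse, and the p-values below therefore rest on array-to-array spread that could be partly technical.

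The hippocampus holds dentate granule neurons, CA pyramidal neurons and GABA interneurons, with astrocytes, microglia, vessels and white matter made of myelin that oligodendrocytes wrap around axons. It lies against the ventricle, whose choroid plexus makes cerebrospinal fluid and whose ependyma lines the wall, so both are close to the dissected tissue. Adolescence is a period of myelination, synapse refinement and continued addition of dentate neurons, and tetrahydrocannabinol, the main psychoactive compound of cannabis, acts on the CB1 receptor, which is abundant on hippocampal nerve endings.

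Biotin-labelled RNA was hybridised to Illumina bead arrays with 45281 probes, and all values below are log2 intensities. A probe was kept if it passed 6.98, the upper edge of the peak of unexpressed probes, in at least 4 of the 18 arrays. This kept 18249 probes, of which 15653 had a gene symbol, for 10436 genes. Where a gene had several probes, the brightest stands for it unless another is named. Arrays of one group correlated at 0.971 to 0.990 in adult cannabis mice and at 0.982 to 0.991 in P28 cannabis mice. The tissue matched its label, since the dentate marker C1ql2, the pyramidal markers Wfs1 and Fibcd1 and the interneuron markers Gad1 and Gad2 were above background on all 9 cannabis arrays. The striatal marker Drd2 averaged 6.96 in adult and 6.88 in P28 cannabis mice, below that level, and passed it on 2 adult arrays. Drd1, also of striatum, averaged 7.05 and 6.91, and passed it on 4 of 5 adult and 1 of 4 P28 cannabis arrays. Ppp1r1b of striatum and 2 of 3 thalamic markers were above it on all 9. Of 6 choroid plexus markers, 2 were above background on all adult cannabis arrays and 4 on all P28 cannabis arrays. Replicates 4 and 5 stood apart from replicates 1 to 3 in every group they occur in, along a component that held 40.0% of the variance around the group means.

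The change from adolescence to adulthood that passed the test in cannabis mice was small and was all downward. With limma and Benjamini-Hochberg adjustment over all 18249 probes, 5 probes (0.0274%) fell in adults and 0 (0%) rose. They belong to the myelin gene Mobp, with 2 probes, to the collagen receptor Ddr1, to Itpripl1, a little-studied membrane protein related to a regulator of the inositol trisphosphate receptor, and to 1 probe without a gene name. All 5 had an adjusted p of 0.0379, and for all 5 the adult and P28 arrays did not overlap. At an unadjusted p under 0.05 there were 1937 probes, 871 higher and 1066 lower in adults, beside 912 that a threshold of 0.05 lets through on average. Of the 10436 genes, 447 (4.28%) were higher and 735 (7.04%) lower at an unadjusted p under 0.05. The arrays of adult and P28 cannabis mice did not overlap for 99 genes that were higher in adults (0.949%) and for 173 that were lower (1.66%). The median difference over all genes was -0.003. The 97 genes that differed by more than 0.5 on the log2 scale were mostly lower in adults, 85 against 12.

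The promoters of the 3 named genes that fell are shown because they are the named genes past the threshold, with the SOX site ACAAAG on either strand in capitals, a motif read by SOX factors such as Sox10 of oligodendrocytes. Each is 300 bases, from 250 before to 50 after a transcription start in RefSeq (build GRCm38.p6). For Ddr1 the second of 4 listed starts is shown, the only one of the 4 with the motif, and for Itpripl1 the first of 2.
Mobp, chr9:120149492-120149791, plus strand: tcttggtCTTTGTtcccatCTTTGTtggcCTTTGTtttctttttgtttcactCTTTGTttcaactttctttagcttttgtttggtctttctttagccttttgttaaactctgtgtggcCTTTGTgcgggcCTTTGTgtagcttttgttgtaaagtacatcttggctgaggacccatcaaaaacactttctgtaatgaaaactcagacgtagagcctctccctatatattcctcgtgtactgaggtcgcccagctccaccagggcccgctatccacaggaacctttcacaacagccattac
Ddr1, chr17:35704090-35704389, minus strand: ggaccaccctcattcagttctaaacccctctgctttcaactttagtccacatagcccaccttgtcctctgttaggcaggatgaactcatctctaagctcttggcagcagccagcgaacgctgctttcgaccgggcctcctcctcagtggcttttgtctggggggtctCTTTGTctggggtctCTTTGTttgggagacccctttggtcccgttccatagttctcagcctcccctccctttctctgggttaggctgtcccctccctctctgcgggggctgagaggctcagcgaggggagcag
Itpripl1, chr2:127143408-127143707, minus strand: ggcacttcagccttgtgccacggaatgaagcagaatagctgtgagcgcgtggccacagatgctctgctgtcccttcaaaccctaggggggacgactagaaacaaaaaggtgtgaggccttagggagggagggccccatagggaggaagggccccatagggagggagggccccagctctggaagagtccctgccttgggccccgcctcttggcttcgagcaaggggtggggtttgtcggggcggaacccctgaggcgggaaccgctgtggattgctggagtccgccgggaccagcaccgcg
The Mobp promoter held the motif 6 times, the Ddr1 promoter 2 times and neither Itpripl1 promoter held it. Of all 32851 promoters listed, 18.7% held it at least once, and of all 27025 genes 21% had such a promoter. Of the 21 myelin list genes with a promoter listed, 7 did, among them 4 of the 7 genes for myelin proteins (Cnp, Mag, Mobp and Opalin). The related form ACAATG, on either strand, was in 12.6% of all promoters (14.3% of genes) and in 5 of those 21. A match is a description of the sequence only.

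Itpripl1 had 7.12, 7.27, 7.10, 7.33 and 7.15 in adult cannabis mice, against 7.45, 7.78, 7.68 and 7.87 in P28 cannabis mice. Every adult array was below every P28 array. It fell by 0.50 ± 0.08 (moderated SE), with adjusted p = 0.0379 in limma. Ddr1, a receptor kinase for collagen that oligodendrocytes and epithelia express, had 8.86, 8.99, 8.65, 8.74 and 8.63 in adult cannabis mice, against 9.20, 9.84, 9.43 and 9.56 in P28 cannabis mice. It fell by 0.73 ± 0.12, again without overlap. Mobp, a structural protein of compact myelin, was read by 5 probes above background. The third brightest had 9.12, 9.56, 9.63, 9.32 and 9.12 in adult cannabis mice, against 10.03, 10.84, 10.21 and 10.29 in P28 cannabis mice. It fell by 0.99 ± 0.16, and the fifth brightest by 0.61 ± 0.10. The other 3 Mobp probes were at -0.66, -1.39 and -1.06 without passing the threshold, so the probes of this gene pointed the same way and differed in size. The probe without a gene name averaged 7.89 ± 0.07 in adult and 8.34 ± 0.08 in P28 cannabis mice (SD, n = 5 and 4) and fell by 0.45 ± 0.07.

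These calls lie close to the threshold. Of the 18 fits that left out 1 array, 12 gave fewer than 5 lower probes and 9 gave 0. Leaving out P28 cannabis array 1 gave 94 lower and 8 higher probes, and leaving out adult cannabis array 2 gave 39 and 9. Arrays deposited in sequence form 3 sets of 6, holding 1 adult and 2 P28, 2 adult and 1 P28, and again 2 adult and 1 P28 cannabis arrays. The third set is made up of replicates 4 and 5 of all groups, so the splits by set and by replicate number are not separate checks. With these sets as a block 88 probes were lower and 53 higher, the 5 among them, and whether the sets are slides is not known here. Within the sets the difference was -0.50, -0.50 and -0.63 for Itpripl1, -0.66, -0.61 and -0.88 for Ddr1, and -1.31, -0.61 and -1.07 for the third Mobp probe.

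**Figure D1:**
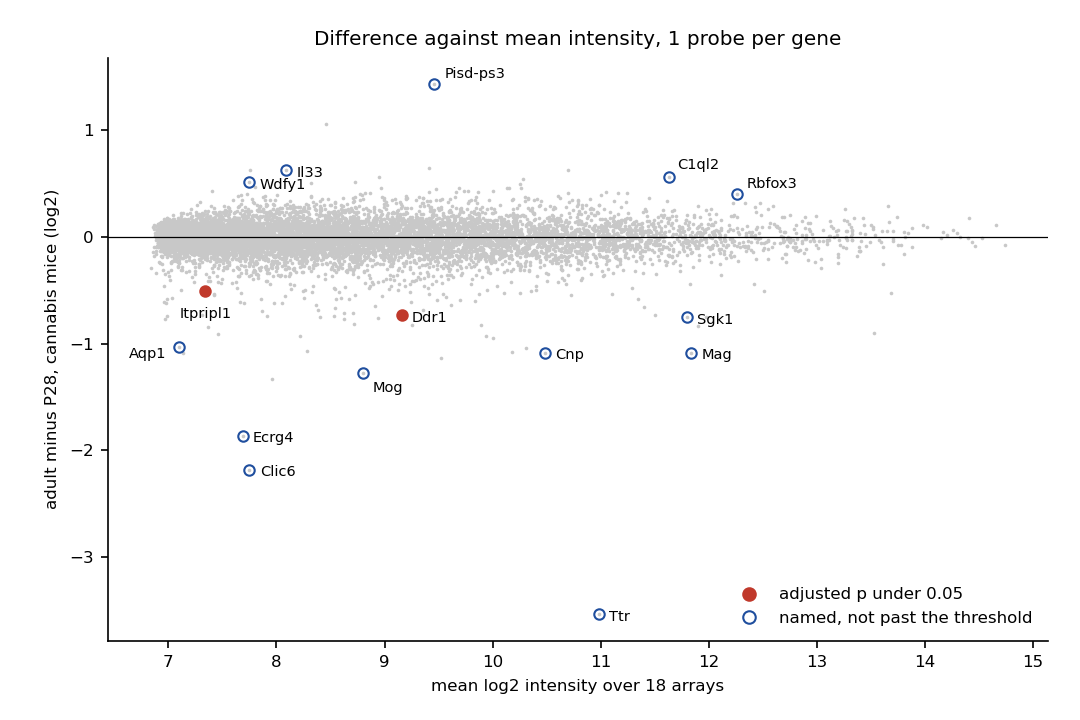
Adult minus P28 difference in cannabis mice (log2, vertical axis) against mean log2 intensity over 18 arrays (horizontal axis) for 10436 genes, 1 probe each. Filled points are Itpripl1 and Ddr1, past the threshold, and open points are other named genes, among which Ttr lies lowest at -3.54 and Pisd-ps3 highest at 1.43. The Mobp probes past the threshold are not the brightest of their gene and are not drawn.

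**Figure D2:**
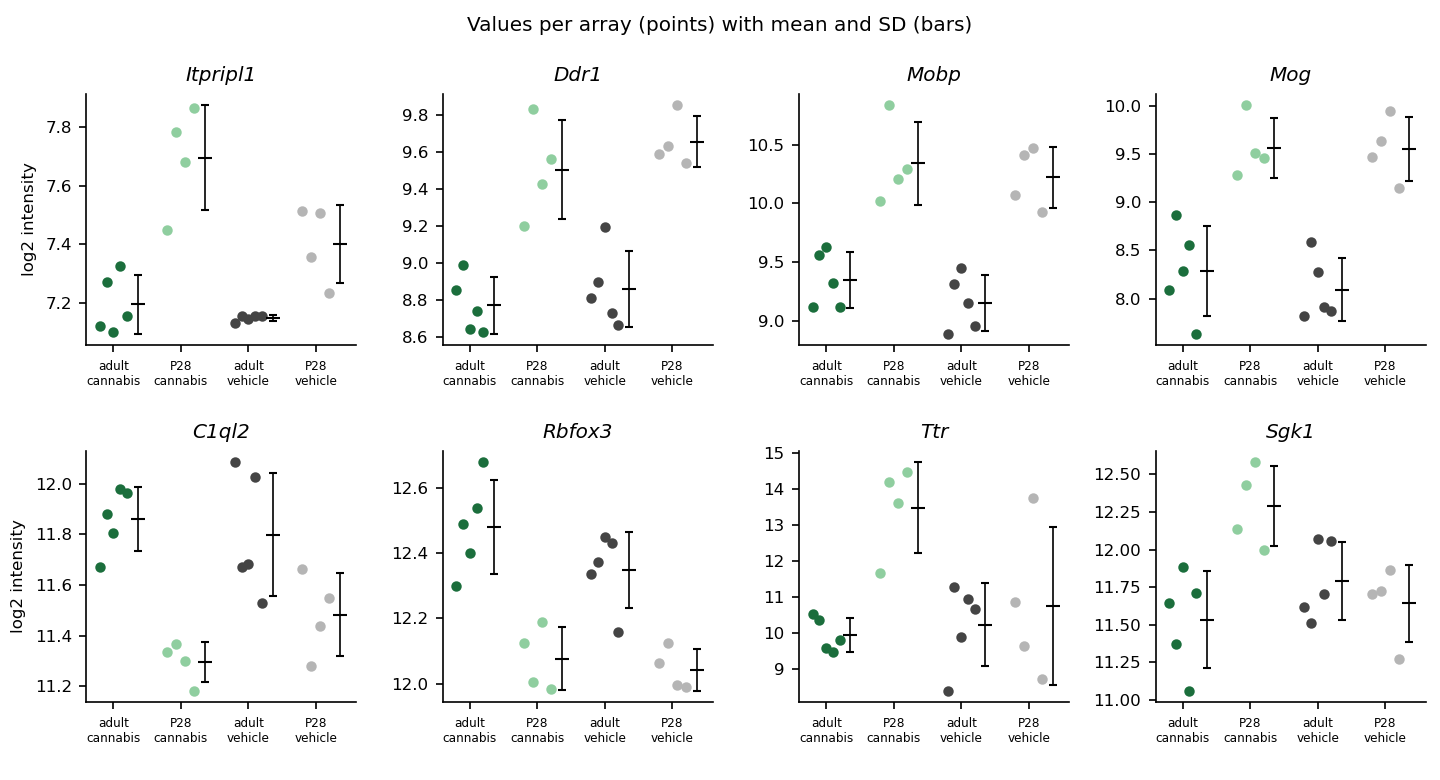
Log2 intensity of 8 genes on each array (points) with mean and SD (bars), in adult cannabis, P28 cannabis, adult vehicle and P28 vehicle mice from left to right. Mobp is the third brightest of its probes. The adult cannabis points lie below all P28 cannabis points for Itpripl1, Ddr1, Mobp, Mog, Ttr and Sgk1, and above them for C1ql2 and Rbfox3.

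Myelin genes were mostly lower in adult cannabis mice. Of the 30 myelin and oligodendrocyte genes on the array 24 were above background, 21 of these were lower in adult cannabis mice, and 15 had an unadjusted p under 0.05, all lower, beside 7.04% of all genes. The median was -0.53, against -0.003 over all genes. The 8 genes for myelin proteins (Mog, Mag, Cldn11, Cnp, Opalin, Mbp, Mobp and Mal) were all lower, with a median of -0.99. Of these, 5 had no overlap between adult and P28 arrays, beside 1.66% of all genes. Mog, the myelin glycoprotein of the outermost layer, had 8.09, 8.86, 8.28, 8.55 and 7.64 in adult cannabis mice, against 9.28, 10.01, 9.51 and 9.45 in P28 cannabis mice. Its difference was -1.28 ± 0.22 with adjusted p = 0.055 in limma, just short of the threshold. Mag, the adhesion protein between myelin and axon, averaged 11.39 ± 0.42 in adults and 12.48 ± 0.39 at P28 (SD, n = 5 and 4), a difference of -1.08 ± 0.23. Cnp, a myelin enzyme, differed by -1.09 ± 0.25 and Cldn11, the tight junction protein of myelin, by -0.90 ± 0.20, both without overlap. Mbp, a main protein of compact myelin, averaged 13.46 in adults and 13.99 at P28, a difference of -0.52 ± 0.16 without overlap.

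Genes for the making of myelin lipid followed. Ugt8a and Fa2h, which build galactosylceramide, differed by -1.08 ± 0.31 and -1.04 ± 0.28, and Gal3st1, which turns it into sulfatide, by -0.71 ± 0.21. With Sox10, Olig1 and other regulators, 6 of these 7 genes were lower, with a median of -0.52. The remaining oligodendrocyte genes were closer to 0, with a median of -0.16 over 9 genes, and Qdpr stood at 0.37 ± 0.22. Sirt2, a deacetylase enriched in myelin, and Gltp, a glycolipid transfer protein, were among the 12 genes with the smallest p in this direction, at -0.82 ± 0.16 and -0.65 ± 0.13 (both adjusted p = 0.0621 in limma). With the sets of 6 as a block 4 myelin genes passed the threshold, all lower (Mog, Mag, Cldn11 and Cnp), beside 0.594% of all genes lower and 0.297% higher in that fit. The median of the list was -0.51 over replicates 1 to 3 and -0.69 over replicates 4 and 5.

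Precursors and immature neurons showed smaller differences of the same sign. All 11 oligodendrocyte precursor genes above background were lower in adult cannabis mice, with a median of -0.17, and 3 had an unadjusted p under 0.05, beside 7.04% of all genes. Without P28 cannabis array 2 the median was -0.09. Gpr17, a receptor of cells about to become oligodendrocytes, had 9.37, 10.16, 9.09, 10.43 and 8.91 in adults, against 9.96, 10.92, 10.36 and 10.86 at P28. Adult arrays 2 and 4 lay inside the P28 range, and the difference was -0.93 ± 0.26 (adjusted p = 0.173 in limma). Enpp6, a marker of newly formed oligodendrocytes, differed by -0.69 ± 0.24 and the ligand Bmp4 by -0.35 ± 0.11. The defining precursor marker Pdgfra differed by -0.21, with 9.07 to 9.83 in adults around 9.40 to 9.65 at P28. Cspg4, another, differed by -0.06 and was near background, at 7.11 in adults and 7.17 at P28. Of 18 immature neuron genes 15 were lower, with a median of -0.17, but 1 had an unadjusted p under 0.05, beside 7.04% of all genes, the cytoskeletal protein Dpysl3 at -0.35 ± 0.13. Marcksl1, a partner of the actin skeleton, had 8.40 to 9.72 in adults and 9.12 to 10.00 at P28, which overlap. Proliferation genes had a median of -0.05 over 15 genes (-0.03 without adult cannabis array 5), with Ccnd2, a cyclin of dividing progenitors, at -0.36 ± 0.11.

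Cholesterol, which myelin needs in quantity, is made by enzymes that were lower in 15 of 17 cases, with a median of -0.14 and 6 at an unadjusted p under 0.05, beside 7.04% of all genes. Sqle, squalene epoxidase, had 10.13, 10.44, 10.17, 10.22 and 9.92 in adult cannabis mice, against 10.68, 10.75, 10.59 and 10.69 in P28 cannabis mice. No adult array reached the P28 range, and the difference was -0.50 ± 0.11 (adjusted p = 0.0807 in limma). Fdps, which makes farnesyl pyrophosphate, differed by -0.52 ± 0.13, also without overlap, and Cyp51 by -0.41 ± 0.14. The sterol regulatory element TCACNCCAC, on either strand, was in the promoters of 0 of the 15 genes of this list that the table holds and in 1.24% of all promoters (1.44% of genes).

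The widest difference of the 10436 genes was that of the choroid plexus gene Ttr. Of 21 choroid plexus genes on the array 20 were above background, and 0 passed the adjusted threshold. Of these 20, 8 were below background on every adult cannabis array and passed the filter through other groups, so their lower values are no independent evidence. The 6 genes above background on all 9 cannabis arrays (Msx1, Sostdc1, Ttr, Igfbp2, Igf2 and Kl) had a median of -0.87 and were all lower in adult cannabis mice, each with an unadjusted p under 0.05, beside 7.04% of all genes. The median of the 20 was -0.60. Ttr, transthyretin, the carrier of thyroid hormone that is the hallmark product of this epithelium, had 10.52, 10.35, 9.58, 9.47 and 9.79 in adult cannabis mice, against 11.66, 14.20, 13.60 and 14.47 in P28 cannabis mice. All adult values were below all P28 values, and P28 array 1 stood far below the other P28 arrays. The difference was -3.54 ± 0.80 (adjusted p = 0.0816 in limma). Ecrg4, a secreted peptide precursor, and Clic6, a chloride channel protein, differed by -1.86 ± 0.39 and -2.19 ± 0.53, and for both P28 array 1 was again the lowest, at 7.38 and 7.19. Aqp1, the water channel of the plexus, was below background on all 5 adult cannabis arrays and above it on 3 of the 4 P28 arrays.

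For 8 of the 20 choroid plexus genes no adult cannabis array passed background, so only a bound can be given, the P28 mean against the background level. Aqp1 was at least 1.84-fold lower in adults, Wfdc2, a secreted epithelial protein, at least 1.88-fold lower, and the tight junction protein Cldn2 at least 1.34-fold lower. With these 8 genes at their bound the median of the list was -0.49. The mean level of the list was 7.34, 7.33, 7.23, 7.25 and 7.24 on the adult cannabis arrays, against 7.42, 8.49, 8.07 and 8.68 on the P28 cannabis arrays. It was 7.15 to 7.41 in adult vehicle mice and 7.46, 7.42, 8.04 and 7.21 in P28 vehicle mice, so 1 P28 vehicle array and 3 P28 cannabis arrays stood above 8. The median was -0.45 over replicates 1 to 3 and -1.09 over replicates 4 and 5, and leaving out P28 cannabis array 1 gave -0.78. With the sets of 6 as a block 3 of the 6 genes above background on all cannabis arrays passed the threshold, beside 0.594% of all genes lower in that fit. In bulk tissue, fewer cells of a type and less RNA per cell cannot be told apart.

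Genes of the ventricle wall and the brain surface had the same sign. Of 5 ependyma genes above background 4 were lower in adult cannabis mice, with a median of -0.41. That median was -0.18 over replicates 1 to 3 and -0.85 over replicates 4 and 5, and it was 0.06 in the first set of 6. The defining marker Foxj1 averaged 7.03 in adults and 6.95 at P28, around the background level. Meningeal genes were lower in 9 of 10 cases, with a median of -0.18, led by Mgp, an inhibitor of calcification, at -0.77 ± 0.17 without overlap. Collagens and other matrix genes were lower in 14 of 15 cases, with a median of -0.13, and Sparc, a collagen-binding protein, was at -0.60 ± 0.14. Of all 10436 genes 5341 were lower. The lists share members, Dcn and Lum between meninges and matrix and Igfbp2 between meninges and plexus. Over replicates 1 to 3 the meningeal and matrix medians were -0.08 and -0.10, and over replicates 4 and 5 both were -0.34. Slc4a2, an anion exchanger of the plexus and other epithelia, was at 8.28 ± 0.12 in adults and 9.02 ± 0.39 at P28, and Slc12a2, a chloride cotransporter, differed by -0.58 ± 0.13.

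The choroid plexus level moved with the myelin level among the P28 cannabis arrays. Arrays 2 and 4 were highest for both lists, with myelin levels of 10.67 and 10.32, and arrays 1 and 3 were lower for both, with 9.91 and 9.99. The adult arrays had myelin levels of 9.38 to 9.83. With the choroid plexus level of each array as a covariate the median of the myelin list was -0.13 and that of its myelin proteins -0.42. In that fit 0 probes passed the threshold. The medians were then -0.09 for oligodendrocyte precursors, -0.07 for cholesterol synthesis, -0.03 for ependyma and -0.07 for meninges. In vehicle mice the choroid plexus median was -0.15 while the myelin median was -0.72. The 5 probes past the threshold became smaller with this covariate, with Ddr1 at -0.39, Itpripl1 at -0.23 and the third Mobp probe at -0.58. The covariate itself did not overlap between the ages in cannabis mice, at 7.23 to 7.34 in adults and 7.42 to 8.68 at P28. It therefore takes up part of the age difference, and the smaller values cannot be credited to plexus tissue. The part of choroid plexus tissue in the myelin values was not tested further.

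**Figure D3:**
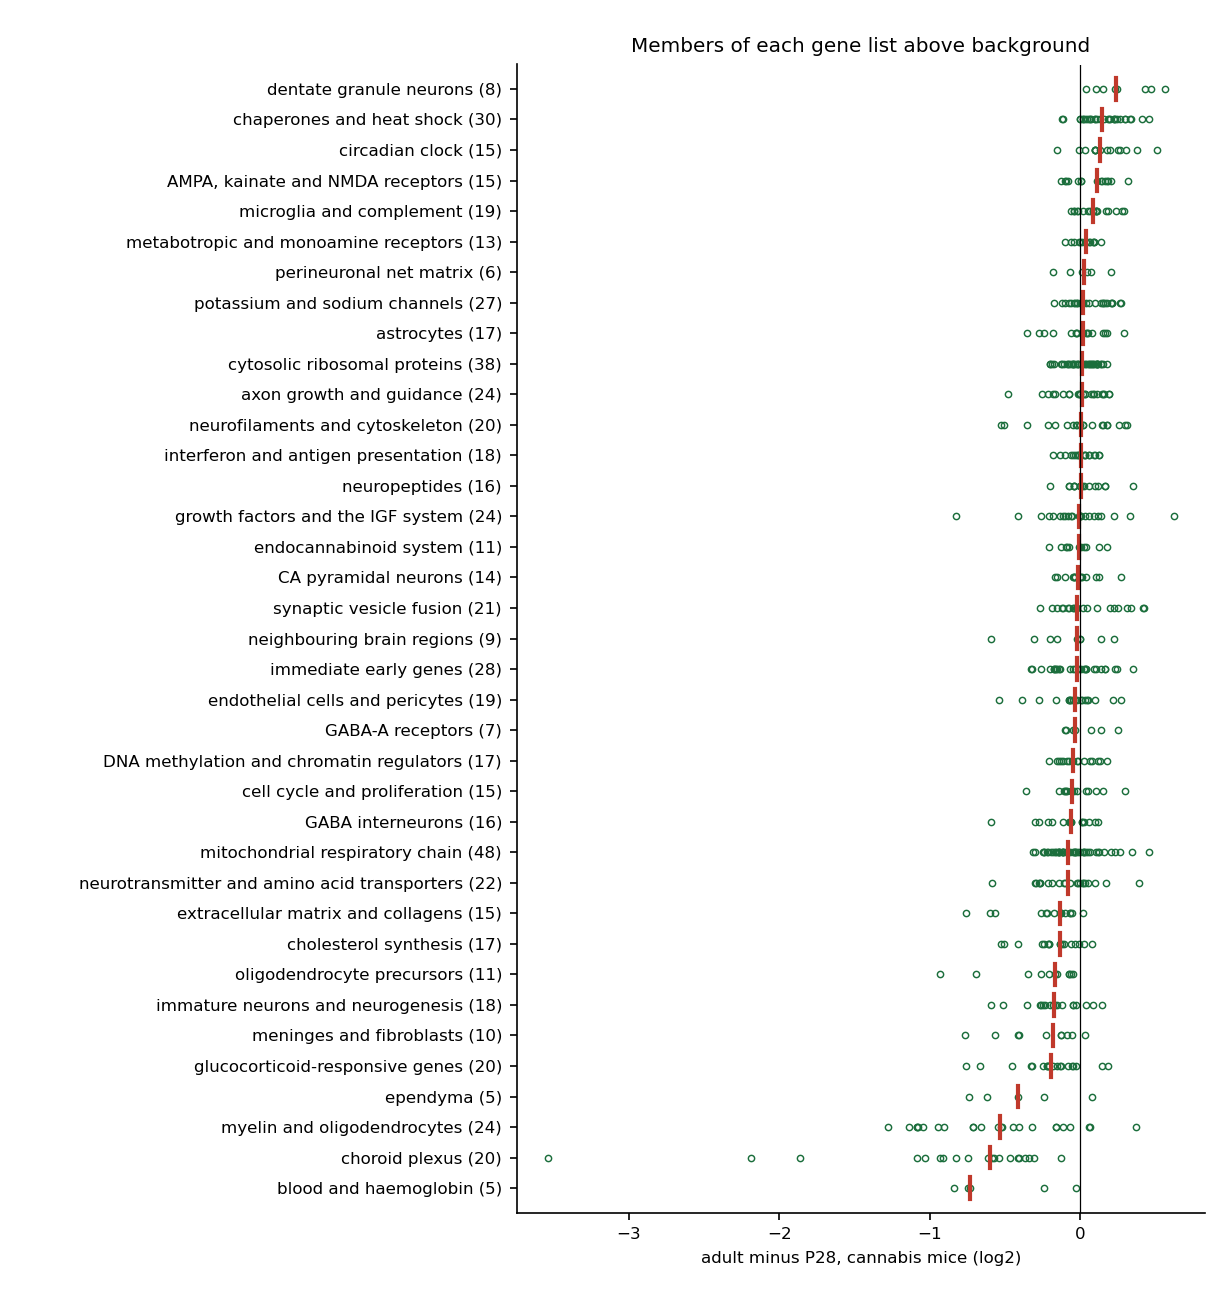
Adult minus P28 difference in cannabis mice (log2) of each gene above background (circles) in 37 lists, with the number of genes in brackets and the median as a red bar, ordered by median. Dentate granule neuron genes lie at the top with a median of 0.24, and myelin, choroid plexus and blood genes at the bottom with -0.53, -0.60 and -0.73.

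Blood genes were lower in adult cannabis mice. All 5 above background were below 0, with a median of -0.73, and 4 had an unadjusted p under 0.05, beside 7.04% of all genes. Hba-a1, an alpha globin, had 10.72, 11.68, 11.58, 11.62 and 10.69 in adults, against 11.75, 12.19, 12.31 and 11.70 at P28, without overlap but with adult array 2 just under P28 array 4. The beta globins Hbb-bt and Hbb-bs differed by -0.84 ± 0.24 and -0.75 ± 0.23, and since their sequences are nearly the same the probes may not separate them. Alas2, which makes haem in red cells, differed by -0.24 ± 0.07. Endothelial genes as a list were near 0, with a median of -0.03 over 19 genes, but the barrier transporters Slc2a1, for glucose, and Mfsd2a, for lysophosphatidylcholine, were both lower without overlap. Slc2a1 averaged 10.54 ± 0.20 in adults and 10.92 ± 0.06 at P28 (SD, n = 5 and 4), a difference of -0.39 ± 0.08, and Mfsd2a differed by -0.54 ± 0.11, both with adjusted p = 0.077 in limma. Flt1, a receptor for VEGF, stood at 0.27 ± 0.11.

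Targets of the glucocorticoid receptor, the receptor of stress hormones, were lower in adult cannabis mice in 18 of 20 cases, with a median of -0.19, and 7 had an unadjusted p under 0.05, beside 7.04% of all genes. Sgk1, a kinase induced by glucocorticoids, had 11.64, 11.37, 11.88, 11.06 and 11.71 in adults, against 12.14, 12.43, 12.58 and 12.00 at P28. The groups did not overlap, and the difference was -0.75 ± 0.17 (adjusted p = 0.0816 in limma). Sult1a1, a sulfotransferase, differed by -0.66 ± 0.15, Cdkn1a, an inhibitor of the cell cycle, by -0.33 ± 0.11, Fkbp5, a co-chaperone of the receptor, by -0.21 ± 0.08, and Dusp1, a phosphatase of MAP kinases, by -0.32 ± 0.12. The receptors themselves, Nr3c1 and Nr3c2, were below background. In vehicle mice the median of the list was -0.06, with Sgk1 at 0.15 ± 0.17 and Dusp1 at 0.31 ± 0.12. The difference between the 2 age steps had an unadjusted p of 0.00139 for Sgk1 and 0.00173 for Dusp1, and 6 of the 20 genes were under 0.05, beside 3.2% of all genes. None passed adjustment.

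Of 6 Sgk1 starts in RefSeq, the fifth had a full palindromic glucocorticoid response element in its promoter, searched on both strands, which stands in capitals below because Sgk1 had the lowest p of this list.
Sgk1, chr10:21993640-21993939, plus strand: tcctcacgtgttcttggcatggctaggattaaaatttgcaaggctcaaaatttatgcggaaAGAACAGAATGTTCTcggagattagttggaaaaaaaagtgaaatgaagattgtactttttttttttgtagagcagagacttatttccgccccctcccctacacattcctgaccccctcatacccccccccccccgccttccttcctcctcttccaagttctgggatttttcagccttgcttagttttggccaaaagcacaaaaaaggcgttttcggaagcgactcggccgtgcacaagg
The element was in 0.00913% of all promoters in the table (0.0111% of genes) and in 1 of the 21 genes of this list that have one there.

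Dentate granule neuron genes had the highest median of the 37 lists. All 8 above background were higher in adult cannabis mice, with a median of 0.24, and 4 had an unadjusted p under 0.05, beside 4.28% of all genes. C1ql2, a synaptic organiser that granule neurons secrete at mossy fibre terminals, had 11.67, 11.88, 11.81, 11.98 and 11.96 in adults, against 11.33, 11.37, 11.30 and 11.18 at P28. Every adult array was above every P28 array, with a difference of 0.56 ± 0.11 and adjusted p = 0.055 in limma. Rfx3, a transcription factor, and Trpc6, a cation channel, were at 0.47 ± 0.13 and 0.43 ± 0.15. Prox1, the factor that defines granule neurons, had 8.64 to 9.43 in adults around 8.89 to 8.94 at P28, a difference of 0.11 ± 0.14. With the sets of 6 as a block C1ql2, Rfx3 and Trpc6 passed the threshold, beside 0.297% of all genes higher in that fit. The list median was 0.09 over replicates 1 to 3 and 0.42 over replicates 4 and 5. CA pyramidal genes had a median of -0.02 over 14 genes and none with an unadjusted p under 0.05.

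The genes with the smallest p for higher values in adults were 12, none past the threshold. Rbfox3, which encodes the neuronal splicing factor NeuN, had 12.30, 12.49, 12.40, 12.54 and 12.68 in adult cannabis mice, against 12.12, 12.01, 12.19 and 11.99 in P28 cannabis mice. The groups did not overlap, and the difference was 0.40 ± 0.08 (adjusted p = 0.055 in limma). Its second probe stood at 0.18. C1ql2, above, followed, and then Dek, a chromatin protein, at 0.37 ± 0.08, Tle1, a transcriptional corepressor, at 0.42 ± 0.09 (its other probes at 0.21 and -0.10), Inka2, an inhibitor of a Pak kinase, at 0.33 ± 0.07 and Wdfy1, an endosomal protein, at 0.51 ± 0.11. Mocos, which activates molybdenum enzymes, Mkx, a homeobox factor, and Lpin2, a phosphatidate phosphatase, ranged between 0.22 and 0.36. Olfm1, a secreted neuronal glycoprotein, and Chst1, a keratan sulfate sulfotransferase, both stood at 0.29. Other probes stood at 0.42 for Dek, 0.33 and -0.11 for Inka2, 0.07 and 0.01 for Lpin2, and 0.23, 0.22 and 0.08 for Olfm1. Pisd-ps3, a pseudogene whose probe may also read its relatives, had the highest difference of the 10436 genes, 1.43 ± 0.35, with adult values of 9.13 to 10.97 and P28 values of 7.40 to 8.84. Among the 12 genes with the smallest p for lower values, beside those named above, were Scrg1 at -0.42 ± 0.08, Cd59a, a complement inhibitor, at -0.57 ± 0.12, Ptpdc1, a phosphatase, at -0.44 ± 0.09 and Gpx8, a peroxidase of the endoplasmic reticulum, at -0.43 ± 0.09. The second Ptpdc1 probe stood at -0.15 and the other Gpx8 probes at -0.30 and -0.34. Scara5, a ferritin receptor, was below background on all 5 adult arrays and at least 1.04-fold lower.

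Chaperones were higher in adult cannabis mice in 27 of 30 cases by small amounts, with a median of 0.15. An unadjusted p under 0.05 was found for 2, near the 4.28% of all genes. The median was 0.09 without adult cannabis array 5 and 0.22 without adult cannabis array 2. Those of the endoplasmic reticulum had a median of 0.20 over 15 genes and the cytosolic and mitochondrial heat shock proteins 0.11 over 15. Pdia6, a disulfide isomerase, was at 0.34 ± 0.14, Hsp90b1, the reticulum's Hsp90, at 0.33 ± 0.16, Creld2 at 0.30 ± 0.15 and Hsp90aa1, the inducible cytosolic Hsp90, at 0.46 ± 0.20. Pdia6 had 8.72, 8.02, 7.96, 8.22 and 8.46 in adults and 7.79, 8.26, 7.75 and 7.92 at P28, so the groups overlapped. The list median was 0.01 in the set of 6 that holds adult arrays 2 and 3. The level of the whole list was spread in adults, from 9.07 on array 2 to 9.54 on array 1, against 9.04 to 9.33 at P28.

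Several of the reticulum's chaperone genes hold the ER stress element in their promoters, searched on both strands. It is in capitals below for the 3 genes of that group with the smallest p, all of which have it.
Pdia6, chr12:17266339-17266638, plus strand: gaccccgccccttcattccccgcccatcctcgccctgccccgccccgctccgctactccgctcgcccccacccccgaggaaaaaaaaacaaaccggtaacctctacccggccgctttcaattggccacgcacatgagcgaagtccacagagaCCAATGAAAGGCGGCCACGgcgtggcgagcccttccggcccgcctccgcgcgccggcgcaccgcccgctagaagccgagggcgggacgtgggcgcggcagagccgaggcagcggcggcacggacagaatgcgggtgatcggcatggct
Hsp90b1, chr10:86705395-86705694, minus strand: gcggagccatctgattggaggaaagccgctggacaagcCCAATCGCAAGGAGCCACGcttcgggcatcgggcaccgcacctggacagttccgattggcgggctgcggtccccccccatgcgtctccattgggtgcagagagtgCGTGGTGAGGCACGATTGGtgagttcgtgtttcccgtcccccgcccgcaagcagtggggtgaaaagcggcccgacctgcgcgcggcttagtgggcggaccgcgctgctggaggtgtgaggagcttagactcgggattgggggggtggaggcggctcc
Creld2, chr15:88819396-88819695, plus strand: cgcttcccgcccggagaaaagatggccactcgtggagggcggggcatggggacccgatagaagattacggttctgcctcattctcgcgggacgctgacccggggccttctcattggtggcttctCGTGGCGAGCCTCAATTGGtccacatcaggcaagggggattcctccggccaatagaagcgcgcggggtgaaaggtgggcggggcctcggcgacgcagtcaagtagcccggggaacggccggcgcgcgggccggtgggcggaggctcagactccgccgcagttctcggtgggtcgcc
It was in 7 of the 15 reticulum chaperone genes with a promoter in the table (Calr, Canx, Creld2, Dnajc3, Hsp90b1, Hspa5 and Pdia6), in 0 of 11 heat shock protein genes and in 0.119% of all promoters (0.137% of genes). The heat shock element, as 3 alternating units, was in 3 of those 11 (Hspd1, Hspe1 and Hsph1), in 0 of the 15 and in 0.603% of all promoters (0.662% of genes).

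Clock genes were higher in 13 of 15 cases, with a median of 0.13 and 4 at an unadjusted p under 0.05, beside 4.28% of all genes. Nr1d2, a repressor in the clock loop, was at 0.52 ± 0.21, Bhlhe40, another repressor, at 0.38 ± 0.15 and Cry2 at 0.20 ± 0.07. The times of day at which the 2 ages were killed are not given, so their part was not tested. The E-box CACGTG, the same on both strands, was in 5 of 16 clock genes' promoters (Bhlhe41, Ciart, Cry1, Per1 and Tef) and in 7.15% of all promoters (8.09% of genes). Immediate early genes, which neurons switch on after activity, were divided, 13 above and 15 below 0, with a median of -0.02. The smallest p belonged to Dusp1 at -0.32, Inhba, an activin subunit, at 0.35 ± 0.15 and Egr2 at -0.26 ± 0.12. The cAMP response element TGACGTCA, the same on both strands, was in 3 of 29 of them (Btg2, Dusp1 and Scg2) and in 1.79% of all promoters (2.03% of genes).

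Synaptic lists had medians close to 0. AMPA, kainate and NMDA receptor genes had a median of 0.11 over 15 genes, with 3 higher at an unadjusted p under 0.05, beside 4.28% of all genes. That median was 0.04 without P28 cannabis array 2. It was -0.04 after adjusting for the choroid plexus level, which did not overlap between the ages in cannabis mice. Gria2, the subunit that keeps AMPA receptors impermeable to calcium, was at 12.49 ± 0.22 in adults and 12.17 ± 0.13 at P28, a difference of 0.32 ± 0.11. Of 21 vesicle fusion genes 5 were higher at that level and 1 lower, beside 4.28% and 7.04% of all genes, with a median of -0.02. The calcium sensor Syt7 was at 0.43 ± 0.13, the active zone protein Rims1 at 0.42 ± 0.14 without overlap, Syn2 at 0.23 ± 0.09, and the glutamate transporter of vesicles Slc17a7 at -0.26 ± 0.09. The sodium channel genes Scn1a, Scn8a and Scn2b stood at 0.27 ± 0.08, 0.21 ± 0.10 and 0.21 ± 0.09, within a channel list of 27 genes whose median was 0.02. Of the interneuron genes, Slc32a1, which loads GABA into vesicles, was at -0.30 ± 0.08 and Pvalb at -0.21 ± 0.10, while Gad1 was at 0.01, Gad2 at -0.06 and Sst at 0.06, and the list had a median of -0.06 over 16 genes. GABA-A receptor genes had a median of -0.03 over 7, metabotropic and monoamine receptors 0.04 over 13, neuropeptides 0.01 over 16, cytoskeletal genes 0.01 over 20, axon guidance genes 0.01 over 24, perineuronal net genes 0.03 over 6 and transporters -0.08 over 22.

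The endocannabinoid genes, the system that the extract acts on, did not pass the test in either direction. Of 18 on the array 11 were above background, with 5 above and 6 below 0, a median of -0.01 and none at an unadjusted p under 0.05. Cnr1, the CB1 receptor, had 7.06, 7.12, 7.14, 6.98 and 7.04 in adult cannabis mice, against 7.16, 7.05, 7.22 and 7.19 in P28 cannabis mice. The groups overlapped, the probe was near background, and the difference was -0.09 ± 0.05 (adjusted p = 0.598 in limma). Of the enzymes that break endocannabinoids down, Mgll was at 0.01 ± 0.17 and Faah at 0.03 ± 0.11. Of those that make them, Napepld was at 0.13 ± 0.11 and Daglb at -0.01 ± 0.09. Cnr2 and Dagla were below background.

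Microglial and complement genes were higher in 14 of 19 cases, with a median of 0.08 and 3 at an unadjusted p under 0.05, beside 4.28% of all genes. Laptm5, a lysosomal protein of immune cells, had 10.53, 10.70, 10.51, 10.66 and 10.77 in adult cannabis mice, against 10.40, 10.45, 10.29 and 10.29 in P28 cannabis mice. It did not overlap between ages and was at 0.28 ± 0.07 (adjusted p = 0.144 in limma). The defining markers were divided, with Csf1r and Cx3cr1 both at -0.04 and C1qa at -0.06. Aif1 was at 0.12, and Tmem119 and C1qb were both at 0.11. Interferon and antigen presentation genes had a median of 0.01 over 18 and none at an unadjusted p under 0.05. Astrocyte genes had a median of 0.02 over 17, with 9 above and 8 below 0. Gfap, the filament of astrocytes, was at -0.35 ± 0.15 and Agt at -0.24 ± 0.07. Of the other defining markers, Aqp4 was at 0.16, Slc1a3 at 0.05, Gja1 at -0.02 and Aldh1l1 at -0.03. Of the growth factors, Igf2, made by plexus and meninges, was at -0.82 ± 0.24 and the alarmin Il33, which is also made by mature oligodendrocytes, at 0.63 ± 0.21, with 7.41 to 7.62 on adult arrays 2 and 4 and 8.36 to 8.78 on adult arrays 1, 3 and 5. That list had a median of -0.004 over 24 genes.

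Respiratory chain genes were lower in adult cannabis mice in 32 of 48 cases, with a median of -0.08 and 8 at an unadjusted p under 0.05, beside 7.04% of all genes. Without adult cannabis array 5 the median was -0.05. It was -0.02 over replicates 1 to 3 and -0.14 over replicates 4 and 5. The smallest p belonged to the complex I subunits Ndufc1 at -0.31 ± 0.08 and Ndufa4 at -0.24 ± 0.07, both without overlap. Cytosolic ribosomal protein genes had a median of 0.01 over 38 genes. Chromatin regulators had a median of -0.05 over 17 and none at an unadjusted p under 0.05. Genes of neighbouring regions, such as striatum and thalamus, had a median of -0.02 over 9 (-0.16 without adult cannabis array 2), with Ppp1r1b, the striatal phosphatase inhibitor DARPP-32, at -0.30 ± 0.12.

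**Figure D4:**
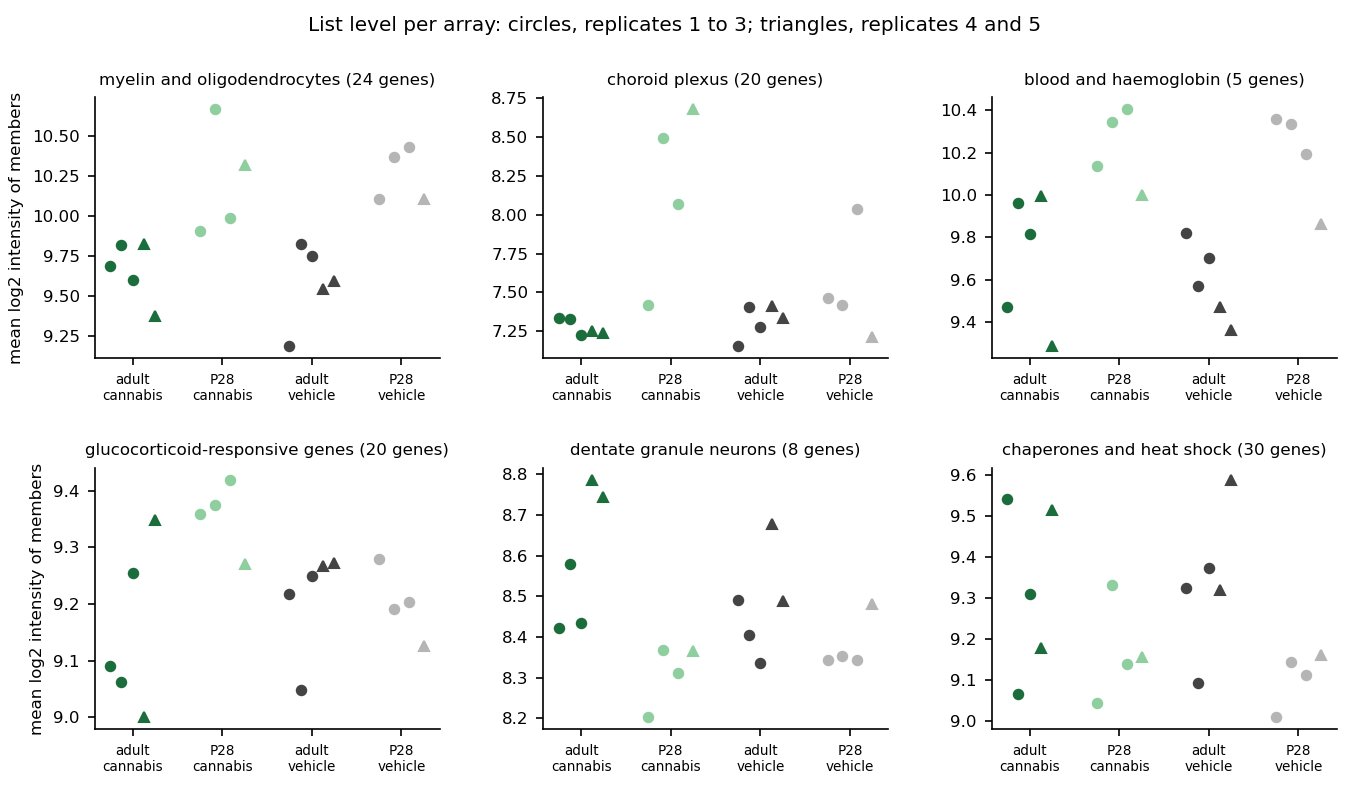
Mean log2 intensity of the members of 6 lists on each array in adult cannabis, P28 cannabis, adult vehicle and P28 vehicle mice, with circles for replicates 1 to 3 and triangles for replicates 4 and 5. Adult cannabis arrays lie below all P28 cannabis arrays for myelin, choroid plexus and blood genes and above them for dentate genes. The choroid plexus level is above 8 on P28 cannabis arrays 2, 3 and 4.

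The vehicle mice give the same age step without the extract, from arrays of their own. In vehicle mice 195 probes (1.07%) passed the same test, 148 lower and 47 higher, and 3 of them were also among the 5 in cannabis mice (60% of the 5 and 1.54% of the 195), both Mobp probes and Ddr1. The test of the difference between the 2 age steps called 0 probes (0%), with a lowest adjusted p of 0.9996, and 531 (2.91%) had an unadjusted p under 0.05. No gene's age difference is therefore shown to be particular to cannabis mice. Of the 195 probes, which were chosen for their vehicle values, 187 had the same sign in cannabis mice (95.9%, beside 67.5% of all 10436 genes), with a median size of 0.28 in cannabis and 0.49 in vehicle mice. The median SD of a probe was 0.126 and 0.108 in adult and P28 cannabis mice, against 0.113 and 0.0969 in adult and P28 vehicle mice.

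Myelin genes were lower in adults after both treatments. Mog stood at -1.28 in cannabis and -1.45 ± 0.22 in vehicle mice, Mag at -1.08 and -1.54 ± 0.23, and Ddr1 at -0.73 and -0.80 ± 0.12, with unadjusted p of 0.583, 0.176 and 0.722 for the difference. Itpripl1 stood at -0.50 in cannabis and -0.25 ± 0.08 in vehicle mice, a difference of -0.25 ± 0.11 between them with unadjusted p = 0.0369. For 8 of the 8 myelin protein genes the cannabis value was the smaller in size, with medians of -0.99 in cannabis and -1.29 in vehicle mice. These 8 were read on the same arrays and are not independent, and 0 of them had an unadjusted p under 0.05 for the difference. Choroid plexus genes were the reverse, with 1 of 20 smaller in size in cannabis mice. Of the 6 above background on all cannabis arrays, 4 had an unadjusted p under 0.05 for the difference, beside 3.2% of all genes. All 4 were further below 0 in cannabis mice. Over the 20 the count was 13, all in that direction. Of these 20, 8 were below background on every adult cannabis array, so the counts over 20 are no independent evidence. Ttr differed between the age steps by -3.03 ± 1.13 (unadjusted p = 0.0153), with 10.23 ± 1.15 in adult and 10.74 ± 2.19 in P28 vehicle mice (SD, n = 5 and 4).

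The 5 genes with the smallest p for this difference were Rfesd, B2m, Ifitm1, Coq5 and Slc38a2, and none passed adjustment. B2m, the light chain of MHC class I, had 10.37, 10.64, 10.52, 10.36 and 10.46 in adult cannabis mice, against 10.33, 10.36, 10.31 and 10.50 in P28 cannabis mice, which overlapped. It stood at 0.09 ± 0.07 in cannabis and -0.38 ± 0.07 in vehicle mice, a difference of 0.47 ± 0.10. Ifitm1, an interferon-induced membrane protein, stood at -0.02 ± 0.06 in cannabis and -0.41 ± 0.06 in vehicle mice. Of the 18 interferon and antigen presentation genes, 8 had an unadjusted p under 0.05 for the difference, beside 3.2% of all genes. Their age difference was higher in cannabis than in vehicle mice for 7 and lower for 1. Of the 13 genes of this list above background on all cannabis arrays, 7 were under 0.05. The mean level of the list was 7.75 in adult and 7.74 in P28 cannabis mice, against 7.72 in adult and 7.93 in P28 vehicle mice. The genes were read on the same arrays and are not independent. Rfesd, an iron-sulfur protein, stood at 0.15 in cannabis and -0.22 in vehicle mice, Coq5, an enzyme of coenzyme Q synthesis, at -0.07 and 0.22, and the glutamine transporter Slc38a2 at -0.27 and 0.40. The other probes of Coq5 and Slc38a2 did not show this. The other 2 Coq5 probes stood at 0.21 and 0.08 in cannabis mice, against 0.27 and -0.01 in vehicle mice, and those of Slc38a2 at 0.20 and -0.02 in cannabis mice, against 0.36 and -0.02 in vehicle mice, with unadjusted p of 0.533 to 0.942 for the difference. The second probes of B2m, Ifitm1 and Rfesd kept the signs of the first in vehicle mice, at -0.35, -0.27 and -0.12.

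**Figure D5:**
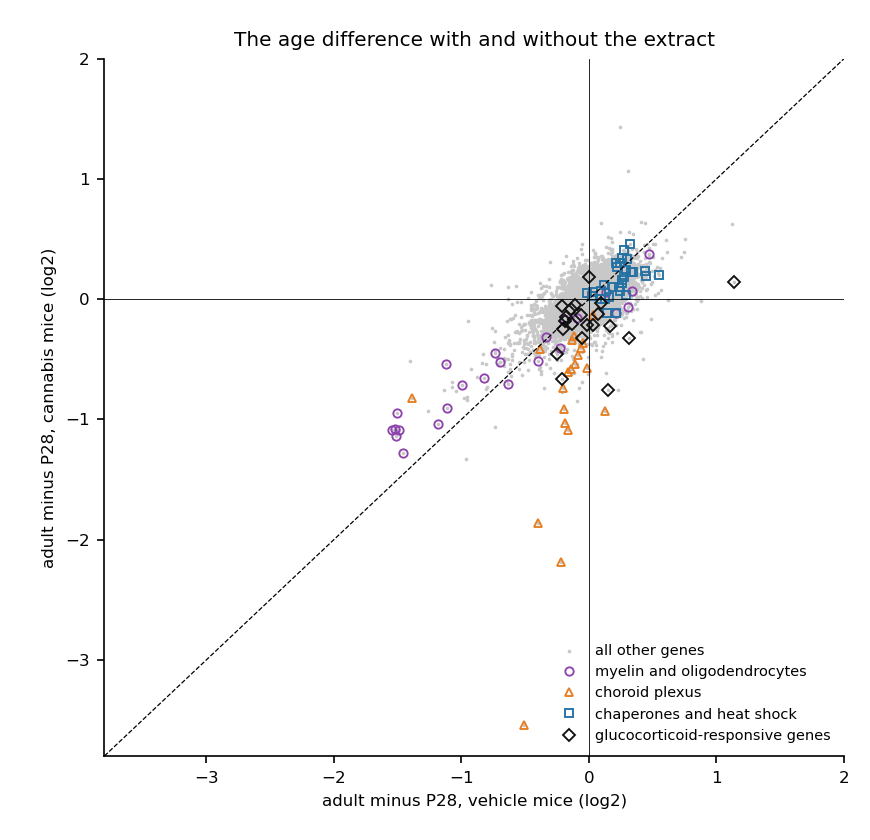
Adult minus P28 difference in cannabis mice (vertical axis) against that in vehicle mice (horizontal axis), both log2, for 10436 genes, with 4 lists marked and equal differences on the dashed line. Myelin genes lie far from 0 on both axes, with medians of -0.53 and -0.72, and choroid plexus genes lie low on the cannabis axis, with medians of -0.60 and -0.15.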

How the data were processed

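Hippocampal RNA of 4 groups (18 arrays) was read on Illumina bead arrays. The values are log2 intensities as deposited by the authors in the series' value table. Per the submitters' processing notes the software was Partek. No source used here gives the normalization method. All columns have the same distribution (6.50 to 15.08, median 6.86), as after quantile normalization, with no background subtracted, so differences are compressed, most for dim probes. The 72 columns of other tables, named by slide position, were not used because they could not be tied to samples.

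Probes above 6.98 (peak of unexpressed probes at 6.77 plus 3 SD) in at least 4 arrays were kept. Of 45281 probes, 34885 had 1 gene symbol, 18 several and 10378 none, and 10 symbols were updated. A fit over all 4 groups used limma 3.58.1 in R 4.3.3 with Benjamini-Hochberg adjustment over 18249 probes and a threshold of 0.05. ± after a difference is the moderated SE. "At least N-fold" sets the brighter group's mean against the background level. Precision is limited by the number of arrays. On simulated data the script was tested with known changes.

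Named genes are those past the threshold and then those with the smallest p, up to 12 per direction, up to 4 members per list, the defining markers, endocannabinoid genes, and the 5 with the smallest p for the difference between age steps. Further members were picked after their values were seen. The members and lists were chosen with earlier results of these data known. Alternatives were filters, priors, array weights, blocks, normexp, median centring, a choroid plexus covariate and leaving out arrays. The deviations of same-numbered cannabis arrays of the 2 ages correlated at r = 0.02, -0.08, 0.64 and 0.59 for numbers 1 to 4. Arrays 3 and 4 thus shared deviations between the ages, and arrays 1 and 2 did not. The labels do not say what the numbers stand for, and the main fit used no pairing. For the promoters, 8 motifs were searched on both strands in RefSeq sequences, 250 bases before to 50 after each start.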

Additional observations from a re-analysis of the deposited data

Results flagged for a closer look

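In a group of 4 or 5 arrays, a value was listed here when its gap to the nearest other array took up most of the group's range by Dixon's criterion. This happened for 8 of 148 groups tested, over 37 genes and 37 lists, and chance gives about 1 in 20. Tle1 was 9.32 on P28 cannabis array 4, against 9.70 to 9.78 on the other P28 cannabis arrays. Coq5 was 10.00 on adult cannabis array 1, against 9.88 to 9.91 on the others of that group. Daglb was 9.28 on P28 cannabis array 2, against 9.47 to 9.50. The mean level of the microglia and complement genes was 7.85 on adult cannabis array 1, against 7.94 to 7.95. That of genes of neighbouring brain regions was 8.37 on adult cannabis array 2, against 7.89 to 8.02. Immediate early genes stood at 8.97 on adult cannabis array 5, against 8.80 to 8.83. Transporter genes stood at 9.67 on adult cannabis array 2, against 9.44 to 9.49, and at 9.63 on P28 cannabis array 3, against 9.58 to 9.59.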

How the results depend on the processing

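The number of probes past the threshold moved with most settings, and the cause was not tested. Counts are higher in adult cannabis mice, lower in adult cannabis mice and, for vehicle mice, both directions. They were 16, 84 and 483 at an adjusted p under 0.10, 0, 0 and 99 with no filter, 4, 16 and 205 with all 18 arrays above background, and 0, 11 and 202 with a filter on the mean. They were 1, 11 and 214 with a trended robust prior, 0, 0 and 850 with array weights, 0, 0 and 375 with only the groups compared, and 0, 2 and 169 with a gene's probes averaged. Normexp gave 1, 14 and 181. The choroid plexus covariate, which did not overlap between the ages in cannabis mice, gave 0, 0 and 90. The replicate block gave 10, 43 and 359, and whether the numbers pair the arrays is not known. Blocking replicates 4 and 5 against 1 to 3 gave 1, 7 and 419, replicates 1 to 3 alone 0, 0 and 4, and the sets of 6 as a block 53, 88 and 554. Leaving out 1 array gave 0 to 9 higher, 0 to 94 lower and 28 to 317 in vehicle mice. For lower probes, leaving out adult cannabis arrays 1 to 5 gave 0, 39, 0, 2 and 1, P28 cannabis arrays 1 to 4 gave 94, 1, 0 and 0, adult vehicle arrays 1 to 5 gave 14, 14, 0, 0 and 0, and P28 vehicle arrays 1 to 4 gave 0, 0, 7 and 7. In vehicle mice, leaving out adult vehicle array 1, 3, 4 or 5 or P28 vehicle array 1, 2 or 3 gave 28 to 94, and adult vehicle array 2 gave 317. The difference between treatments had 0 probes in every setting that could give it. A 1.2-fold minimum and median centring left the counts of lower probes at 5.

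Of 2957 values of 174 named genes under the alternatives, 51 lost and 99 gained the threshold, 229 moved and 0 changed sign while past it. Of 629 list medians 35 moved by more than the spread and 48 changed sign. Small differences of dim probes are limited by signal over background.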
